A study of Mus musculus with 2 samples.

Results

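Neighbouring distal SRCAP peaks were gathered into clusters. SRCAP is the motor subunit of a chromatin remodelling complex, and its peaks came from CUT&RUN, which releases the DNA around an antibody-bound protein in intact nuclei for sequencing. The members were the GFP-antibody peaks on chromosomes 1 to 19 that overlapped a SRCAP-antibody peak by at least 1 bp and whose midpoint lay over 2500 bp from every annotated transcription start site (TSS). Peaks with a gap of at most 12.5 kb between them were stitched, and regions of 3 or more peaks were kept, so that the members were chosen by where peaks were called in both lists. Of 28718 GFP peaks, 28290 lay on the autosomes, 15953 of these overlapped a SRCAP peak and 8620 were distal. Stitching gave 7595 regions. Of these, 6849 held a single peak, 617 held a pair and 129 were clusters. The 129 clusters held 537 peaks, or 6.23% of the shared distal peaks (95% Wilson interval 5.74% to 6.76%).

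Both libraries came from SYAT cells, a mouse embryonic stem cell line derived from CGR8 in which both copies of Srcap carry YPet and an auxin-inducible degron (AID). YPet is a yellow fluorescent protein that the GFP antibody (ab290) binds, and the other antibody (ESL-103) was raised against SRCAP itself. The line is a single knock-in clone that also expresses the auxin receptor OsTir1 from a lentivirus. Cells were kept in auxinole, which blocks that receptor and so limits the loss of SRCAP without auxin (the control condition), and were moved to Serum LIF medium 3 days before the experiment. Each library was made from 100000 cells fixed in 0.1% formaldehyde for 5 min. There was 1 library per antibody, so the values below are a description with no test between conditions, and every interval covers counting error over peaks, regions or genes only. The sequencing depth behind the peak lists is unknown here, and the lists hold no expression values against which the cell type could be checked.

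SRCAP drives the exchange of the histone H2A for the variant H2A.Z in nucleosomes, at active promoters and at distal regulatory elements. Distal elements with accessible chromatin often lie close to each other, and stitching them over short gaps is a common way to describe such neighbourhoods. Tandem gene families, such as zinc finger genes and rodent-specific families of reproductive tissues, form a different kind of neighbourhood in which near-identical copies of the same sequence lie side by side.

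The sequences below show these different backgrounds. Each was read from the RefSeq assembly GRCm38.p6 on the + strand unless stated otherwise, and all but the second pair lie at the midpoint of the highest peak of their cluster. The first pair is shown because the top peaks of separate clusters in the chromosome 8 array held the same stretch of DNA. The capitals mark the longest run of bases that both windows shared, 114 bases. The first window is chr8:20389186-20389385, in a noncoding gene, from the cluster of 23 peaks at Gm15319, and the second is chr8:19703269-19703468 on the - strand, between genes, from the cluster beside 4930467E23Rik.
Gm15319 window: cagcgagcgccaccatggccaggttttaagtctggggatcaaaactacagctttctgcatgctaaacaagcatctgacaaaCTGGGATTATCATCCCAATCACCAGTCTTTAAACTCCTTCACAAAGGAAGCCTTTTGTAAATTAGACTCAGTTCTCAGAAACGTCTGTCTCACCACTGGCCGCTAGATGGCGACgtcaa
4930467E23Rik window: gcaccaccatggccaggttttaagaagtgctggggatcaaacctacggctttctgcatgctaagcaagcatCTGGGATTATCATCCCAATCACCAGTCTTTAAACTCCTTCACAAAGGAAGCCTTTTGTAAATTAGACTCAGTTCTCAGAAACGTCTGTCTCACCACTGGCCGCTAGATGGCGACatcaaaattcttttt
Among 17 windows compared with each other, this was the only pair of 136 with a common run of at least 31 bases. The longest run in any other compared pair was 22 bases. Windows that were mostly repeat-masked or overlapped an exon had been left out. All of those came from the clusters called mostly repeated below. They include chr8:20145547-20145746 and chr8:20273985-20274184, whose peaks form a pair of members with shared sequence. The comparison therefore does not show how rare shared stretches were among the top peaks.

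The next pair shows how little the aligned stretches of member peaks of different clusters could differ. The first line is chr8:20332173-20332322 in the Gm15319 cluster, and the second is chr8:20511255-20511404, read on the - strand, in the cluster of 20 peaks nearest to Gm21119. Capitals mark the 2 positions at which the aligned stretches of 150 bases differed.
Gm15319 copy: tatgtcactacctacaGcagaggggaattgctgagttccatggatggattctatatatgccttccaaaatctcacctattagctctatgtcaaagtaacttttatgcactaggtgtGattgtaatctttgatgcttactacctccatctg
Gm21119 copy: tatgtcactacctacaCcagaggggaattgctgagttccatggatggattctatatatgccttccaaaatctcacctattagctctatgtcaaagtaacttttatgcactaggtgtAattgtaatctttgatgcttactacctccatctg
The peak behind the first line had a GFP score of 282 and a SRCAP score of 532, against 173 and 163 for the other. The score is a whole number listed for each peak. Its definition is not given in the sources used here, and it is read throughout as larger where the evidence for the peak was stronger.

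The other windows come from the zinc finger gene array of chromosome 4 (chr4:146430851-146431050, in the noncoding gene Gm26573, from the cluster at Zfp992), from the chromosome 13 array (chr13:65991106-65991305, between genes, nearest to Gm10324) and from single-copy DNA. Capitals mark the exact motif words found on either strand, CATTCCA (the TEAD word) at Gm10324, CCAATCAG (NFY) and the reverse complement of ATGCAAAT (POU octamer) at Stox2, and CATTGTT (SOX) at Eed. The Peak1 window (chr9:56287828-56288027), the Tet2 window (chr3:133533869-133534068) and the Stox2 window (chr8:47334337-47334536) lay in introns of those genes. The Eed window (chr7:90007100-90007299) lay in the noncoding gene E230029C05Rik, and the Trmt9b window (chr8:36539364-36539563) lay between genes.
Zfp992 window: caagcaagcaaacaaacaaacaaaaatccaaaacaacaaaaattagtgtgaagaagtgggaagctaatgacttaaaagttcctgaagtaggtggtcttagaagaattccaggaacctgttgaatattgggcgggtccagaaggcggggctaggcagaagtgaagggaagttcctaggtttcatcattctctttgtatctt
Gm10324 window: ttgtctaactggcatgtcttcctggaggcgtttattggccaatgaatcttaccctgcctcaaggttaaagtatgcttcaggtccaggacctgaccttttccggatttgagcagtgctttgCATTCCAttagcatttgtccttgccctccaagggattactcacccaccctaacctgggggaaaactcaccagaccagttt
Peak1 window: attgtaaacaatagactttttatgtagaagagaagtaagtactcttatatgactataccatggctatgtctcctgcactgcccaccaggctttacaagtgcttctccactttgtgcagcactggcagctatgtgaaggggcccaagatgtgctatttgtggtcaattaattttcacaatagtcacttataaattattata
Tet2 window: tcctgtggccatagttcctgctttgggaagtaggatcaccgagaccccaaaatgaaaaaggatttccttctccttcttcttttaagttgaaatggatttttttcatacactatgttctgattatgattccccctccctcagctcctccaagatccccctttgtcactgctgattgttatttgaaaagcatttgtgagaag
Stox2 window: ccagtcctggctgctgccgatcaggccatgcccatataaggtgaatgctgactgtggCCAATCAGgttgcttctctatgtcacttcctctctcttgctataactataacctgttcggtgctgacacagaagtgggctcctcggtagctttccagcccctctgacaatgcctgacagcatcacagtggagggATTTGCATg
Eed window: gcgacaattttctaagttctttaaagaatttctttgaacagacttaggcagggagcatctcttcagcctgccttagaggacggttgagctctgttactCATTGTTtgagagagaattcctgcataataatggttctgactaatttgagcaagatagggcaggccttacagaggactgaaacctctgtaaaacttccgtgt
Trmt9b window: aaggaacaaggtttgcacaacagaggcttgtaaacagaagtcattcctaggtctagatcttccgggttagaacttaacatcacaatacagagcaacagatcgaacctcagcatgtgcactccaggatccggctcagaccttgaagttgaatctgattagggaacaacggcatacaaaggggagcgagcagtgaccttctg
A match is a description of the letters and not a binding site. The Peak1 window had a GC content of 38.0% and no CpG, whereas the Stox2 window had 52.5% and 3 CpGs and the Trmt9b window 47.0% and 5 CpGs.

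The clusters fell into 2 kinds when their sequence was examined, a split chosen after the data were seen. In 35 clusters with 219 peaks, over 50% of the 31-base words (31-mers) of the member peaks occurred more than once on the assembled chromosomes, and these are called mostly repeated. The other 94 clusters with 318 peaks are called mostly single-copy. Of the 129 clusters, 78 had under 10% repeated 31-mers, 12 had between 80% and 90% and 13 had 90% or more. The rest were spread from 10% to 80%, with 2 to 6 clusters in each step of 10%, so the 50% limit is not a natural gap. The clusters nearest to the limit were that on the Zfp960 side of chromosome 17 at 48.7% and that at Zfp992 at 50.7%. Repeated sequence was more common in clusters than elsewhere. Over 50% of 31-mers were repeated in 41.2% of member peaks (37.1% to 45.4%), in 9.16% of the peaks in pairs, in 10.4% of lone peaks and in 3.70% of the shared peaks within 2500 bp of a TSS. How reads with more than 1 place in the assembly were treated in these CUT&RUN libraries is not given in the sources used here, and its part in the repeated clusters was not tested.

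Large clusters were mostly repeated. Of the 87 clusters of 3 peaks, 13 were mostly repeated, as were 5 of the 20 with 4 peaks and 2 of the 6 with 5 peaks. Of the 16 clusters with 6 or more peaks, 15 were mostly repeated, and the exception was the cluster of 16 peaks at Peak1, which encodes a pseudokinase of cytoskeletal signalling. The plot of cluster size against repeated sequence shows both groups.

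**Figure D1:**
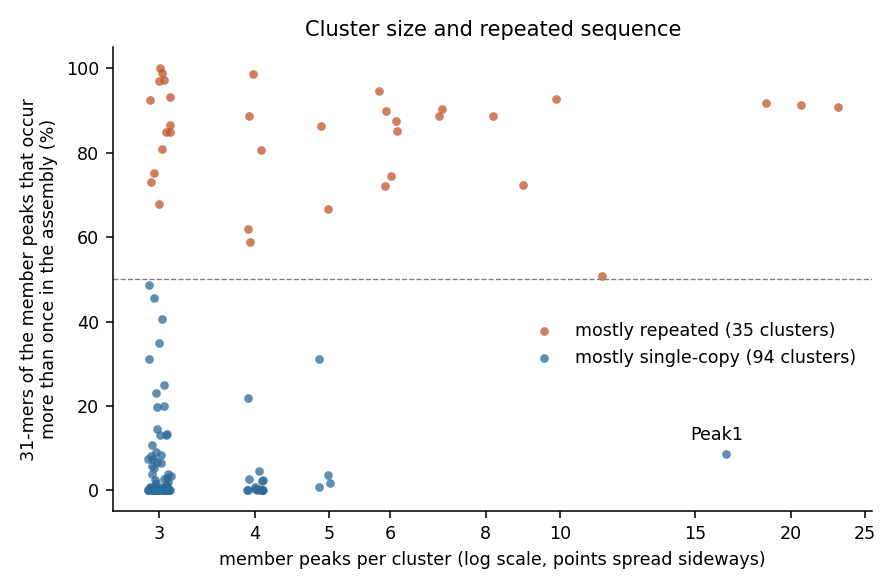
Each point is a cluster, with its number of member peaks on the log-scaled horizontal axis (points are spread sideways for visibility) and the percentage of 31-mers of its member peaks that occur more than once in the assembly on the vertical axis. The dashed line is the 50% limit, the 35 mostly repeated clusters lie above it, and Peak1 with 16 peaks and 8.64% repeated 31-mers is the only cluster of 6 or more peaks below it.

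Clusters spanned a median of 15851 bp (14073 to 17780 bp) and ranged from 1671 to 86301 bp. The peaks themselves covered a median of 9.04% of the span. Members of repeated clusters lay closer to each other, with a median gap of 2581.5 bp (2073 to 3514 bp, 184 gaps) against 6512.5 bp (5519 to 7254 bp, 224 gaps) in single-copy clusters. Gaps under 1000 bp made up 26.1% of the gaps in the former and 14.3% in the latter. At the edges of the rule, the largest gap joined was 12488 bp and the smallest gap not joined was 12506 bp. In the 500 bp below the limit 45 gaps were joined, and in the 500 bp above it 38 were not. Of the 87 clusters of 3 peaks, 5 rested on a gap within 500 bp of the limit, and 6 pairs of peaks missed a further member by at most 500 bp. The member closest to a TSS lay 2506 bp away, and 27 members lay within 500 bp of that limit.

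Most of the repeated clusters lay in arrays. The largest array was on chromosome 8 (chr8:19688422-20835599), where 12 clusters held 116 of the 219 repeated member peaks. This stretch of 1147178 bp contained 168 GFP peaks and 237 SRCAP peaks, or 146 GFP peaks per Mb against 11.3 per Mb on the autosomes other than chromosome 8. Its bounds are the ends of clusters chosen for closely spaced peaks, so the rule itself raises this density. Its protein-coding genes within 50 kb of a cluster were 4930467E23Rik, Gm15319, Gm21119 and Gm31371. The 31-mers of its member peaks occurred a median of 6 times in the assembly. Within the array and the 500 kb on either side of it, the median was 5. All 116 members had a further copy in that wider stretch, which need not lie close to the member. The cluster of 23 peaks at Gm15319 (chr8:20321353-20407653) had the most members and the largest summed GFP score, 5317, with a summed SRCAP score of 6457. Most of its members were modest, with a median GFP score of 136, but a peak at chr8:20388914-20389658 scored 1230 with GFP and 1119 with SRCAP, and a peak at chr8:20394592-20395493 scored 1002 and 773. The clusters of 20 and 19 peaks next to it, near and at Gm21119 (chr8:20494046-20554209 and chr8:20571037-20643406), had no such peak. Their highest GFP scores were 394 and 445, and their medians were 138 and 151.

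The second array was a zinc finger gene cluster on chromosome 4 (chr4:145674441-147404287), with 8 clusters and 43 member peaks. Of these members, 27 had a further copy within the array or the 500 kb on either side of it. Zinc finger genes of such arrays encode DNA-binding proteins, many of which silence transposable elements. Of the 14 coding genes in this array or within 50 kb of its ends, 11 were named Zfp, among them Zfp600, Zfp978, Zfp980 and Zfp992. Some of the 11, such as Zfp986, lay over 50 kb from every cluster. The scores were lower than on chromosome 8, with a GFP median of 61 (range 30 to 272) and a SRCAP median of 75. The cluster of 11 peaks at Zfp992 (chr4:146426962-146469404) illustrates this. Its members from left to right scored 37, 272, 59, 51, 46, 54, 59, 53, 46, 50 and 51 with the GFP antibody. A single member was thus over 4 times as high as any other, and that member is the one whose sequence is shown above.

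Smaller arrays had different levels. On chromosome 5 (chr5:14947692-15703166), 5 clusters with 20 peaks lay among 10 coding genes, of which 3 belonged to the Speer4 family, and their GFP median was 56.5 and their SRCAP median 102.5. On chromosome 13 (chr13:65975652-66727026), 3 clusters with 14 peaks had a GFP median of 139.5 and a SRCAP median of 91.5. The cluster nearest to Gm10324 in that array had GFP scores of 44, 280 and 808. The repeated clusters of chromosome 14 held 20 peaks, in arrays of 2 clusters each and in a lone cluster (chr14:19607619-19610989). A single cluster on chromosome 16 (chr16:82087032-82092709) stood apart, because the 31-mers of its 3 peaks had a median of 8056 copies and the median peak was 100% repeat-masked. Its GFP scores were 1110, 129 and 493. In the cluster on chromosome 17 at Dynlt1b, which encodes a dynein light chain, the 3 peaks had a median of 3 copies and scored between 75 and 98.

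Some members held stretches of nearly the same sequence. Members were paired where they had in common at least 50% of the 31-mers of whichever of them had fewer. The longer member of a pair could therefore share a smaller part of its own sequence. Among the 537 members, 29 were in such a pair, and all 29 were in repeated clusters (13.2% of 219, against 0 of 318). They formed 15 pairs, 13 of them on chromosome 8, and in each of the 15 the partners were in different clusters. Members of the same cluster had any 31-mer in common in only 2 of the 35 repeated clusters and 1 of the 94 single-copy clusters. Aligned without gaps, 11 pairs had an identity of at least 98% and the other 4 had between 68.0% and 73.6%. An alignment without gaps counts mismatches all along a stretch that is shifted by an added or missing base. In the pair at chr8:20396746-20396938 and chr8:20581157-20581369, for example, part of the sequence matched after a shift by 1 base. The 4 lower values therefore need not measure divergence. In those 11 pairs the higher GFP score was a median of 2.03 times the lower (range 1.12 to 3.99), a ratio that is above 1 by its construction and has no comparison here. The same peak was the higher in both lists in 10 of the 11. The largest ratio was at the peak scoring 1002, whose partner at chr8:20267527-20267995 scored 251 although 469 aligned bases held 4 differences. The peak scoring 1230, which was 745 bp wide, had a partner at chr8:20588820-20589095 that scored 312, with 1 difference in 276 aligned bases. In both of these pairs the aligned bases were only a part of the higher peak, which was wider than its partner. The rest of that peak was not compared.

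Repeated and single-copy members differed in score, width and composition. The scores come from the lists that chose the members and are given as a description. The median GFP score was 103 (92 to 118) in repeated clusters and 61 (55 to 67) in single-copy clusters, beside 58 (57 to 59) for the 8083 shared distal peaks outside clusters. The corresponding SRCAP medians were 138, 53 and 57. Against the 7260 outside peaks that were themselves mostly single-copy, which had a GFP median of 56 (55 to 57), the single-copy members had a median higher by 5, and these 2 intervals overlapped. Repeated members were narrower, with a median width of 280 bp against 383.5 bp. All 3 members scoring over 1000 were in repeated clusters.

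**Figure D2:**
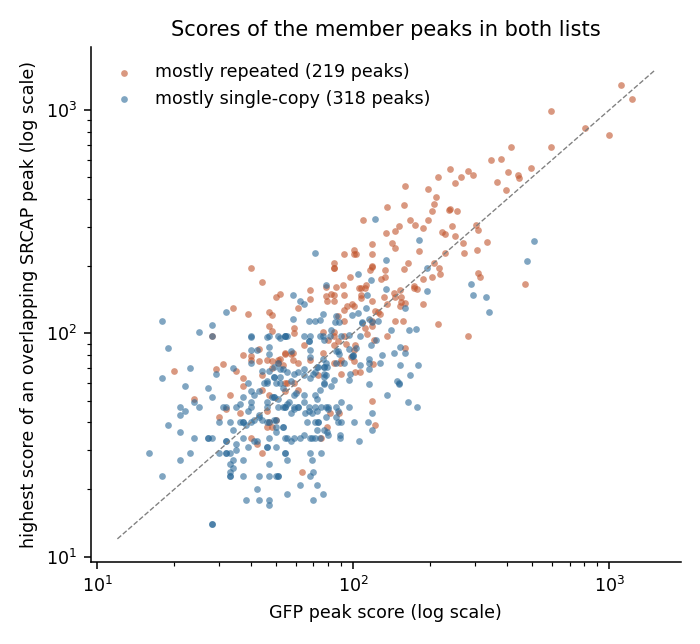
Each point is a member peak, with its GFP score on the horizontal axis and the highest score of a SRCAP peak that overlaps it on the vertical axis, both log-scaled. Most of the 219 repeated members lie above the dashed line of equal scores, whereas the 318 single-copy members lie on both sides of it.

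The 2 antibodies ranked the repeated members more alike than the single-copy members. Spearman's rho between the scores was 0.788 over 219 repeated members and 0.471 over 318 single-copy members, and 0.505 over the 8083 outside peaks. These are descriptions across peaks of the same pair of libraries, and 13 members at Peak1 share a single SRCAP peak. The GFP score exceeded the SRCAP score in 29.7% of repeated members, 57.2% of single-copy members and 51.9% of outside peaks. The spans of repeated clusters also contained 78 SRCAP peaks without a GFP peak and 18 GFP peaks without a SRCAP peak, whereas single-copy spans contained 18 and 30. Scores were not normalised between the lists, so a GFP level and a SRCAP level set side by side do not measure a difference in binding.

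Repeated members were poorer in GC. Their median GC content in 500 bp was 41.0% (39.8% to 42.0%), against 48.5% (48.2% to 49.2%) in single-copy members. Single-copy members were close to the outside peaks, with 48.4%, and both were below the 55.0% of shared peaks near a TSS. CpGs followed the same order. The median ratio of observed to expected CpG was 0.123, 0.234 and 0.231 in repeated members, single-copy members and outside peaks, and 0.575 near a TSS. A window with a ratio of at least 0.6 and a GC content of at least 50% was found at 5 of the 537 members (0.931%), at 2.93% of outside peaks and at 43.7% of shared peaks near a TSS. Interspersed repeats, as masked in the assembly, covered a median of 30.8% of a repeated member and 9.53% of a single-copy member, against 11.3% outside.

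Member peaks and other shared distal peaks held the searched motif words at shares whose counting intervals overlapped. A set of 16 exact words of 6 to 9 letters was searched on both strands of the 200 bp at each midpoint, and set beside all 11979192 windows of that length on chromosomes 1 to 19. The YY1 word AAGATGGCG was in 1 of 537 members (0.186%, 0.0329% to 1.05%), in 1.04% of outside peaks (0.840% to 1.28%) and in 0.208% of all windows. The TEAD word CATTCCA was in 5.21% of members (3.63% to 7.43%), 4.03% of outside peaks and 3.26% of all windows. The POU octamer ATGCAAAT, the word of the factor family that includes the pluripotency factor Oct4, was in 2.23% of members (1.28% to 3.86%), 3.32% of outside peaks and 1.70% of all windows. The NRF1 word GCGCATGCG, the ZNF143 word ACTACAATT and the CRE word TGACGTCA were in 0 of 537 members, which allows a share of up to 0.710% (Wilson). They were in 0.0307%, 0.146% and 0.111% of all windows, so these counts of 0 carry little information. The SP word GGGGCGGGG was in 0.559% of members, 0.965% of outside peaks, 0.354% of all windows and 6.48% of shared peaks near a TSS. The NFY word CCAATCAG was in 1.30% of members, 1.98% of outside peaks, 0.703% of all windows and 4.57% near a TSS. The CTCF word CCAGGGGGC was in 3 members (0.559%), all in single-copy clusters, in 0.755% of outside peaks and in 0.106% of all windows. No match says only that these letters were not in the window.

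The Peak1 cluster was a broad domain rather than a group of separate peaks. Of its 16 members, 13 lay under a single SRCAP peak, chr9:56260445-56318803, which was 58359 bp wide and scored 97. No other of the 27878 autosomal SRCAP peaks was as wide. The 13 GFP peaks were 706 to 11988 bp wide, scored between 28 and 81 and covered 94.3% of the stretch from the first to the last of them. All 9 members of any cluster that were over 2000 bp wide were among them. The other 3 members, to the right, were 287 to 451 bp wide, with scores of 47, 38 and 28. The cluster as a whole lay within Peak1 (chr9:56260691-56341832), had 8.64% repeated 31-mers and contained 4 distinct SRCAP peaks under its 16 members. In the other 128 clusters there were 526 distinct SRCAP peaks under 521 members, with fewer SRCAP peaks than members in 3 clusters and more in 8.

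**Figure D3:**
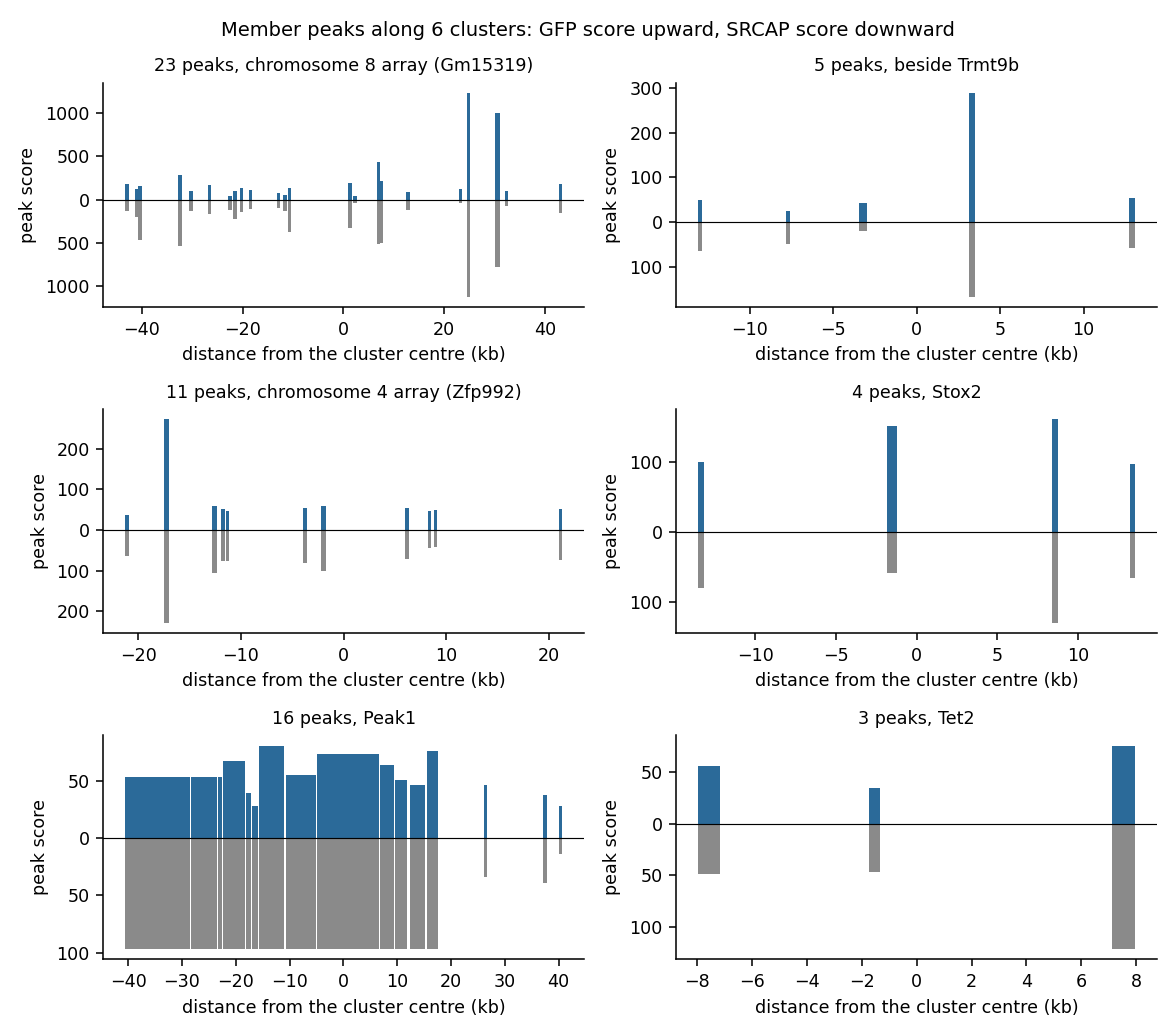
Each panel shows a cluster, with the distance from its centre in kb on the horizontal axis and the peak score on the vertical axis, GFP upward (blue) and the highest overlapping SRCAP score downward (grey). Bars are as wide as the GFP peak, with a minimum of 0.8% of the span so that narrow peaks stay visible, and the 13 neighbouring members under the broad SRCAP peak at Peak1 carry the same SRCAP score of 97 because they share a peak.

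Other single-copy clusters were made of 3 to 5 peaks. The top GFP score was over 2 times the median of its cluster in 26 of 94 single-copy clusters and in 17 of 35 repeated clusters. In clusters of 3 peaks of either kind, the top member carried a median of 48.0% of the summed GFP score (range 34.96% to 77.5%). The clusters of 5 peaks lay near Zfp978, Trmt9b, Tle4 and Pds5a. Beside Trmt9b (chr8:36523068-36549254), a gene named for its likeness to tRNA methyltransferases, the members scored 49, 24, 42, 288 and 53 with GFP and 64, 49, 20, 167 and 57 with SRCAP, and the same peak was the highest in both lists. Near Tle4 (chr19:14655410-14680319), which encodes a Groucho co-repressor, the GFP scores were 62, 27, 50, 90 and 72. Near Pds5a, a cohesin-associated factor (chr5:65706227-65732000), they were 37, 69, 30, 54 and 75. The cluster near Zfp978 (chr4:147417127-147432231) scored 479, 53, 21, 64 and 57, and with 31.03% repeated 31-mers it lay beside the zinc finger array.

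Among the clusters of 4 single-copy peaks, that in Stox2 had the largest summed GFP score. Stox2 encodes a storkhead-box protein, and its members (chr8:47312339-47339397) scored 100, 151, 160 and 97. At Eed, a core subunit of Polycomb repressive complex 2, the cluster lay 16691 bp from the TSS (chr7:89997674-90025398) and scored 114, 160, 69 and 106. The cluster near Ier2, an immediate early gene (chr8:84647290-84660420), scored 148, 78, 115 and 76, and that near Serbp1, an mRNA-binding protein (chr6:67145957-67170695), scored 115, 96, 49 and 67. In each of these 4 clusters the GFP scores of the members were within 3-fold of each other. Gse1, which encodes a co-regulator linked to histone deacetylase complexes, held 3 clusters (11 peaks), the highest with scores of 92, 194, 58 and 55 (chr8:120319614-120337393).

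Of the genes of the short lists drawn up for embryonic stem cells, a single gene overlapped a cluster. Of 20807 protein-coding genes on the autosomes, 61 (0.293%) overlapped a cluster with their body, 51 of them a single-copy cluster and 10 a repeated cluster. The start of 150 genes (0.721%) lay within 50 kb of a cluster. Among 32 pluripotency genes, Tet2 alone overlapped a cluster. Tet2 encodes a dioxygenase that oxidises 5-methylcytosine, and its 3 intronic peaks (chr3:133518458-133534394) scored 56, 35 and 76 with GFP and 49, 47 and 122 with SRCAP. The last of the 3 was the highest in both lists, and Tet2 itself had a shared peak at its promoter. None of 23 lineage regulators, 24 signalling genes, 19 genes of the SRCAP and TIP60 complexes and H2A.Z or 9 genes named by the study overlapped a cluster or had its start within 50 kb of one. For the 23 lineage regulators, a count of 0 is compatible with a share of up to 14.3% (Wilson), so these short lists carry little information.

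Longer lists gave the following counts. No olfactory receptor gene (0 of 1128), ribosomal protein gene (0 of 88), proteasome gene (0 of 49) or developmental regulator (0 of 138) overlapped a cluster. Of the developmental regulators, Foxi3 had its start within 50 kb of one. Zinc finger genes named Zfp overlapped clusters in 5 of 388 cases (1.29%, 0.552% to 2.98%, against 0.293% of all coding genes), namely Zfp600, Zfp978, Zfp980 and Zfp992 in the chromosome 4 array and Zfp1 on chromosome 8. Within 50 kb there were 10 of 388 (2.58%, against 0.721%). Among 61 chromatin remodeller genes, Smarca5 alone overlapped a cluster. Smarca5 encodes the ISWI ATPase SNF2H, and its 3 peaks (chr8:80704726-80708697) scored 71, 28 and 43 with GFP. These lists were drawn up with results of these data already known, and the neighbouring genes of an array are not separate cases.

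Clusters lay mostly in introns and between genes, as other distal peaks did. By its midpoint, 33.0% of members lay in an intron of a coding gene (29.1% to 37.0%), 17.5% in an intron of a noncoding gene, 2.05% in an exon and 47.5% between genes. Outside clusters the shares were 37.4%, 6.04%, 4.54% and 52.0%. The kinds differed within the introns. Introns of coding genes held 45.9% of single-copy members (40.5% to 51.4%) and 14.2% of repeated members (10.2% to 19.4%), and introns of noncoding genes held 4.72% and 36.1%. Single-copy members were farther from a TSS, with a median of 15686 bp (13835 to 17684 bp), than repeated members with 9503 bp (8763 to 11632 bp), beside 12604 bp for outside peaks. Only 2 coding genes had more than a single cluster over their body, Gse1 with 3 and Gm20388, a gene model of chromosome 8 that overlaps Gse1, with 6.

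Clusters and lone distal peaks had a shared peak at the nearest coding promoter at shares that differed by less than the interval of the former. A shared peak with its midpoint between 1000 bp upstream and 500 bp downstream of the TSS was found at the nearest coding gene of 41 of 129 clusters (31.8%, 24.4% to 40.2%). The share was 31.8% for pairs of distal peaks, 30.3% for lone distal peaks and 26.9% for all coding genes. It was 17.1% for the 35 repeated clusters (8.10% to 32.7%) and 37.2% for the 94 single-copy clusters (28.1% to 47.3%). Within the single-copy clusters it differed by chromosome, with 4 of 29 on chromosome 8 (13.8%, 5.50% to 30.6%) and 31 of 65 on the others (47.7%, 36.02% to 59.6%). Clusters with the same nearest gene were counted separately, so they are not all separate cases. On chromosome 8 this held for Gse1 and Sall1, neither of which had a shared promoter peak.

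Chromosome 8 held the most clusters of both kinds. With 41 clusters, of which 29 were single-copy, it had 0.326 clusters per Mb, against 0.0388 on the other autosomes together and 0.112 on chromosome 4, the next highest. It carried 212 of the 537 members (39.5%, 35.4% to 43.7%). Without its array the density on chromosome 8 was still 0.233 clusters per Mb. Of its shared distal peaks 20.9% were in clusters, or 10.8% without the array, against 4.27% on the other autosomes. Single-copy clusters also lay closer to each other there, since 9 of 29 had another cluster within 100 kb, against 1 of 65 elsewhere. Examples, picked after their values were seen, were a pair of clusters that lay on either side of Sall1, which encodes a zinc finger transcription factor. The first (chr8:89003344-89015934), 28228 bp from the TSS of Sall1, had GFP scores of 151, 104 and 89, and the second (chr8:89046989-89073432), 2827 bp from it, had scores of 40, 123, 96 and 67.

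**Figure D4:**
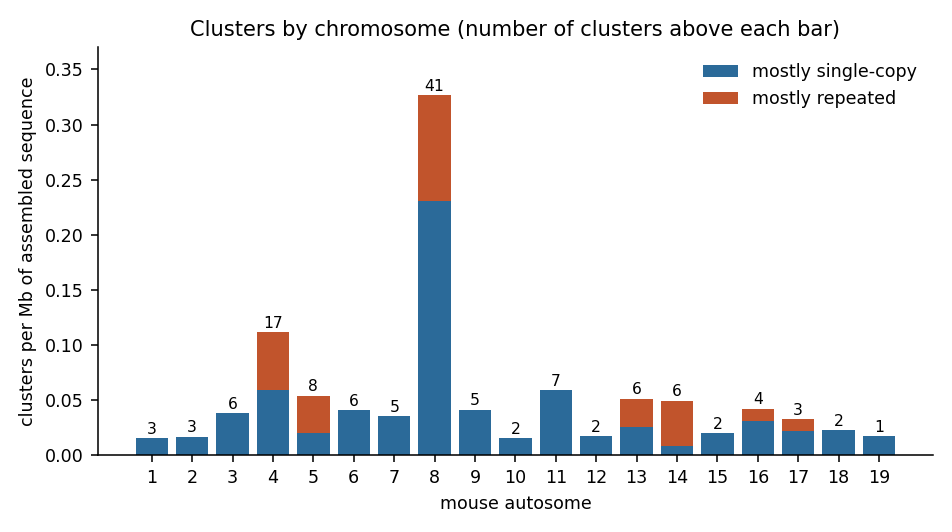
Bars give the number of clusters per Mb of assembled sequence for each autosome, stacked by kind, with the number of clusters above each bar. Chromosome 8 reaches 0.326 clusters per Mb, and its single-copy part alone exceeds the whole bar of every other chromosome.

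The surplus on chromosome 8 was not limited to clusters or to distal peaks. Both lists were denser there, with 20.3 GFP peaks and 23.6 SRCAP peaks per Mb against 11.3 and 10.97 on the other autosomes. Shared distal peaks had a density of 8.09 per Mb, or 7.17 without the array, and between 2.63 and 4.90 on each other autosome. A shared promoter peak was found at 39.1% of its coding genes (36.2% to 42.1%), against 22.3% to 28.9% on each other autosome, although its 8.28 coding genes per Mb were close to the 8.71 of the others. The scores themselves were alike, with a median of 49 against 47 over all GFP peaks. No input, other control library or karyotype was used here, so these densities and shares were not set against the background of the chromosome. A higher density of peaks shortens the gaps that the stitching rule works on. How much of the surplus of clusters on chromosome 8 goes with its peak density was not tested.

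**Figure D5:**
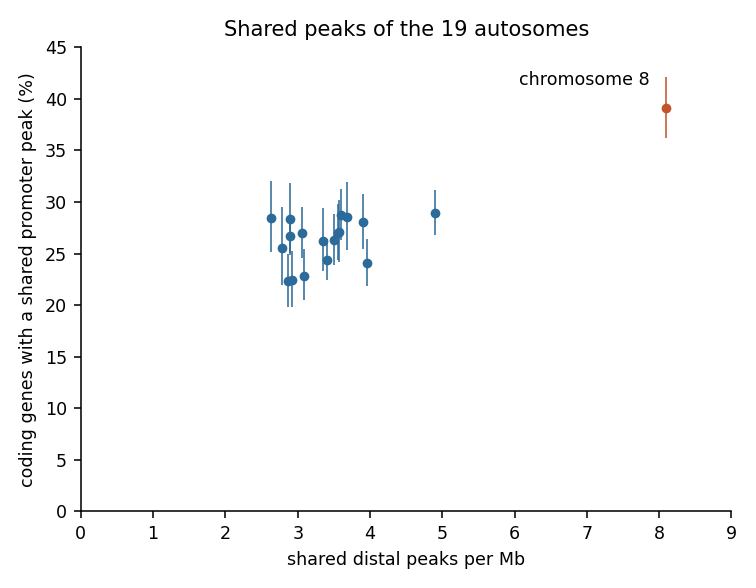
Each point is an autosome, with its shared distal peaks per Mb on the horizontal axis and the percentage of its protein-coding genes with a shared promoter peak on the vertical axis, with 95% Wilson intervals over genes. Chromosome 8, at 8.09 peaks per Mb and 39.1% of genes, lies apart from the other 18 autosomes on both axes.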

How the data were processed

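SYAT mouse embryonic stem cells were profiled by CUT&RUN, with a single library for each of the GFP and SRCAP antibodies. The authors deposited a BED peak list per library, 1 for each antibody, holding 28718 and 28167 peaks, in which the score column is a whole number. The submitters' processing notes name MACS2, STAR, Picard and the builds mm10 and dm6. Handling of reads that map to several places, of duplicates and of control libraries in CUT&RUN is not given in the sources used here.

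Transcripts and genes were those of GENCODE vM21 on GRCm38, and sequence and repeat masking were read from RefSeq GRCm38.p6. Overlap was at least 1 bp. Each 31-mer of a peak was counted on chromosomes 1 to 19, X and Y on both strands. Arrays were clusters of 1 kind under 1000 kb apart. GC and CpG were computed in 500 bp and motif words in 200 bp at each midpoint. Shares carry 95% Wilson intervals and medians carry order-statistic intervals. Peaks within a cluster are neighbours and not replicates. The scripts (Python 3.11.15, numpy 2.4.6, pandas 2.3.3) were tested on simulated peaks.

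Clusters named were the 10 with the most peaks, the 10 with the largest summed GFP score without a peak over 1000, those at genes of the short lists and, added after the data were seen, the 10 single-copy clusters with the most peaks. Clusters named outside these rules (Sall1, Smarca5, Dynlt1b, Zfp960 and that on chromosome 16) were chosen after their values were seen. The members and lists were chosen with earlier results of these data known.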

Additional observations from a re-analysis of the deposited data

How the results depend on the processing

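No paired analysis was possible because there was a single library per antibody. For the same reason no replicate could be left out and no spread between replicates could be set against a difference, and the depth that limits the peak lists is unknown. The 8 values that describe the clusters were 129 clusters, 6.23% of shared distal peaks in clusters, a median span of 15851 bp, 39.5% of members on chromosome 8, 31.8% of clusters with a shared promoter peak at the nearest coding gene, a median GFP score of 73, a median GC content of 46.4% and 0.293% of coding genes overlapped. They are given in this order below wherever an alternative moved them beyond their interval, or a count beyond 1.5 times.

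At a stitching distance of 5000 bp there were 41 clusters with 2.08% of the peaks, a span of 6317 bp, 63.1% on chromosome 8, 14.6% with a promoter peak, a score of 92, a GC content of 42.0% and 0.0433% of genes. At 25000 bp there were 291 clusters with 13.6% of the peaks, a span of 28213 bp, 29.7% on chromosome 8, a score of 64, a GC content of 48.0% and 1.07% of genes. With only the peaks that reached their list's median score, 37 clusters held 4.81% of the peaks, with a span of 18239 bp, 58.9% on chromosome 8, a score of 113, a GC content of 42.0% and 0.0625% of genes. With a reciprocal overlap of at least 50%, 67 clusters held 4.56%, with 49.5% on chromosome 8, 17.9% with a promoter peak, a score of 87, a GC content of 44.2% and 0.111% of genes. A TSS distance of 1000 bp gave 7.05% of peaks and 0.495% of genes. A TSS distance of 5000 bp gave 5.46% of peaks, 43.7% on chromosome 8 and 0.173% of genes. TSSs of coding transcripts alone gave 7.56% of peaks, 34.1% on chromosome 8 and 0.442% of genes. Without chromosome 8 the values were 4.27% of peaks, 42.0% with a promoter peak, a score of 63 and 0.202% of genes. Without peaks over 50% repeat-masked they were 4.90% of peaks, a GC content of 47.8% and 0.221% of genes. A promoter of 2500 bp on either side of the TSS gave 48.8% with a promoter peak. Without the mostly repeated clusters, an alternative added after the data were seen, they were 3.79% of peaks, 30.2% on chromosome 8, a score of 61 and a GC content of 48.5%. The cause of these shifts was not tested.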
